A study of Mus with 18 samples.

Results

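Oxidative phosphorylation is the set of protein complexes of the inner mitochondrial membrane that pass electrons to oxygen and use the resulting proton gradient to make ATP. Complexes I, III, IV and V are each built from subunits encoded in the nucleus together with a few encoded by the mitochondrial genome, so their genes are transcribed in separate compartments by separate polymerases, while complex II is encoded in the nucleus alone. Macrophages stimulated with lipopolysaccharide (LPS), a bacterial cell wall component that activates them through Toll-like receptor signalling, are known for a shift of their energy metabolism from respiration towards glycolysis.

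The genes described here were those whose symbols begin with Nduf, Uqcr, Atp5, Cox4i, Cox5, Cox6, Cox7, Cox8, mt-Nd, mt-Co, mt-Atp or mt-Cytb, without processed pseudogenes marked -ps, and with a summed count of 180 or more over all libraries. Of 54532 genes in the table, 107 names matched and 96 passed the count minimum, and all 96 also passed the filter for testing. They comprised 83 nuclear genes on 19 chromosomes and the 13 protein-coding genes of the mitochondrial genome. The nuclear genes held 7 core subunits, 29 accessory subunits and 8 assembly factors of complex I, 8 genes of complex III, 13 of complex IV, 16 of complex V, the supercomplex factor Cox7a2l, and Atp5s. The members with the lowest summed counts above the minimum were mt-Atp8 with 300, mt-Nd3 with 347 and Atp5s with 612. Just below it were Cox4i2 with 124 and Ndufa4l2 with 47, which are the alternative isoforms of Cox4i1 and Ndufa4. The testis-type or muscle-type genes Cox6b2 and Cox8b had a summed count of 1 each, and Cox7b2 and Cox8c had 0.

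RNA of RAW264.7, a macrophage-like line from mouse, was sequenced in 6 groups of 3 libraries, all collected after 6 h. Cells were given 1 µg/mL LPS together with 100 µM of a cysteine adduct of chlorogenic acid (LPS+CGACys), a cysteine adduct of caffeic acid (LPS+CACys), chlorogenic acid (LPS+CGA) or caffeic acid (LPS+CA), or LPS alone, or neither (Control). Caffeic acid is a plant hydroxycinnamic acid, and chlorogenic acid is its ester with quinic acid. Whether a group's libraries are separate cultures is not stated in the labels, and p-values here reflect only library-to-library spread, which may be technical.

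Library totals ran from 16105817 to 25624935 counts. The nuclear members took 0.557% to 0.791% of a library and the mitochondrial members 1.18% to 1.81%. All 10 macrophage markers checked were expressed, with summed levels of 4430 to 6350 CPM (counts scaled to a fixed library size after correction for composition). Summed levels of fibroblast markers were 1.56 to 8.70 CPM with Col3a1 and Thy1 at 0, those of lymphocyte markers 0.237 to 1.72 CPM with Cd8a and Nkg7 at 0, and those of neutrophil and mast cell markers 4.27 to 16.8 CPM with Mpo at 0. LPS+CA replicate 2, LPS replicate 2 and LPS+CACys replicate 1 stood apart from the other libraries of their groups. LPS+CA replicate 2 had 7571 CPM of nuclear members, against 6607 and 6473 CPM in the other LPS+CA libraries, and cytosolic ribosomal protein genes took 4.82% of its counts, against 4.07% in each of the others. LPS replicate 2 had 12241 CPM of mitochondrial members, against 14754 and 15792 CPM in the other LPS libraries. LPS+CACys replicate 1 had the lowest share of ribosomal protein genes of all libraries, 3.55%, and mt-Co1 made up 50.9% of its mitochondrial member counts, against 46.8% in each of the other LPS+CACys libraries. Results for the members that rest on these libraries are mostly given with and without them. Group means of summed levels, counts for gene lists outside the members and values of mitochondrial ribosomal RNA genes are given with all libraries only.

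The mean summed levels of nuclear and mitochondrial members moved apart in some comparisons and alike in others. Against LPS cells, the nuclear mean was lower and the mitochondrial mean higher in LPS+CGACys, LPS+CACys and LPS+CGA cells. The mitochondrial differences leaned on LPS replicate 2, at 12241 CPM. Without that library the median log2 change of mitochondrial members against LPS was 0.083 in LPS+CGACys, -0.004 in LPS+CACys and 0.004 in LPS+CGA. Both the nuclear and the mitochondrial mean were lower in LPS than in Control cells, and both were higher in LPS+CA than in LPS cells. Without LPS replicate 2 the mitochondrial median was -0.017 in LPS against Control and 0.006 in LPS+CA against LPS. Without LPS+CA replicate 2, at 7571 CPM of nuclear members, the nuclear median was -0.003 in LPS+CA against LPS. The summed level of the nuclear members was 5991 ± 134 CPM in LPS+CGACys cells, 6142 ± 150 in LPS+CACys cells, 6438 ± 173 in LPS+CGA cells, 6884 ± 599 in LPS+CA cells, 6571 ± 104 in LPS cells and 6862 ± 138 in Control cells (SD, n = 3 each). The summed level of the mitochondrial members was 16010 ± 102 CPM in LPS+CGACys cells, 15270 ± 1330 in LPS+CACys cells, 15820 ± 146 in LPS+CGA cells, 14960 ± 1020 in LPS+CA cells, 14260 ± 1830 in LPS cells and 15550 ± 404 in Control cells. The mean nuclear sum was thus lowest in both adduct groups. The mitochondrial sums of all LPS+CGACys libraries, 15912 to 16116 CPM, lay above those of all LPS+CA and LPS libraries, whose highest were 15680 and 15792 CPM, and overlapped those of LPS+CACys, LPS+CGA and Control libraries.

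The ratio of mitochondrial to nuclear member counts does not depend on how libraries are scaled. It was 2.63, 2.73 and 2.67 in LPS+CGACys libraries, 2.31, 2.51 and 2.63 in LPS+CACys libraries, 2.43, 2.55 and 2.40 in LPS+CGA libraries, 2.37, 1.82 and 2.38 in LPS+CA libraries, 2.27, 1.83 and 2.43 in LPS libraries, and 2.28, 2.26 and 2.25 in Control libraries. All LPS+CGACys libraries lay above all LPS, LPS+CA, LPS+CGA and Control libraries, and LPS+CACys libraries overlapped LPS+CGA and LPS libraries. The LPS+CGA libraries also lay above all LPS+CA and Control libraries, and overlapped LPS libraries. On the log2 scale LPS+CGACys exceeded LPS by 0.31 (pooled SD 0.15) and exceeded LPS+CGA by 0.12 (pooled SD 0.04). Without LPS replicate 2 the difference between LPS+CGACys and LPS was 0.19. LPS+CGA exceeded LPS by 0.19 (pooled SD 0.15), and by 0.07 without LPS replicate 2. It exceeded LPS+CA by 0.18 (pooled SD 0.16), and by 0.05 without LPS+CA replicate 2. LPS+CACys differed from LPS+CA by 0.19 with a pooled SD of 0.17 and overlapping libraries, and by 0.06 without LPS+CA replicate 2. LPS differed from Control by -0.07 with a pooled SD of 0.15, also with overlap, and by 0.05 without LPS replicate 2. These ratios are sums over chosen genes and were given no test. Because the material is bulk RNA, fewer cells of a kind and less RNA per cell cannot be told apart, nor can fewer mitochondria and less RNA in each.

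**Figure D1:**
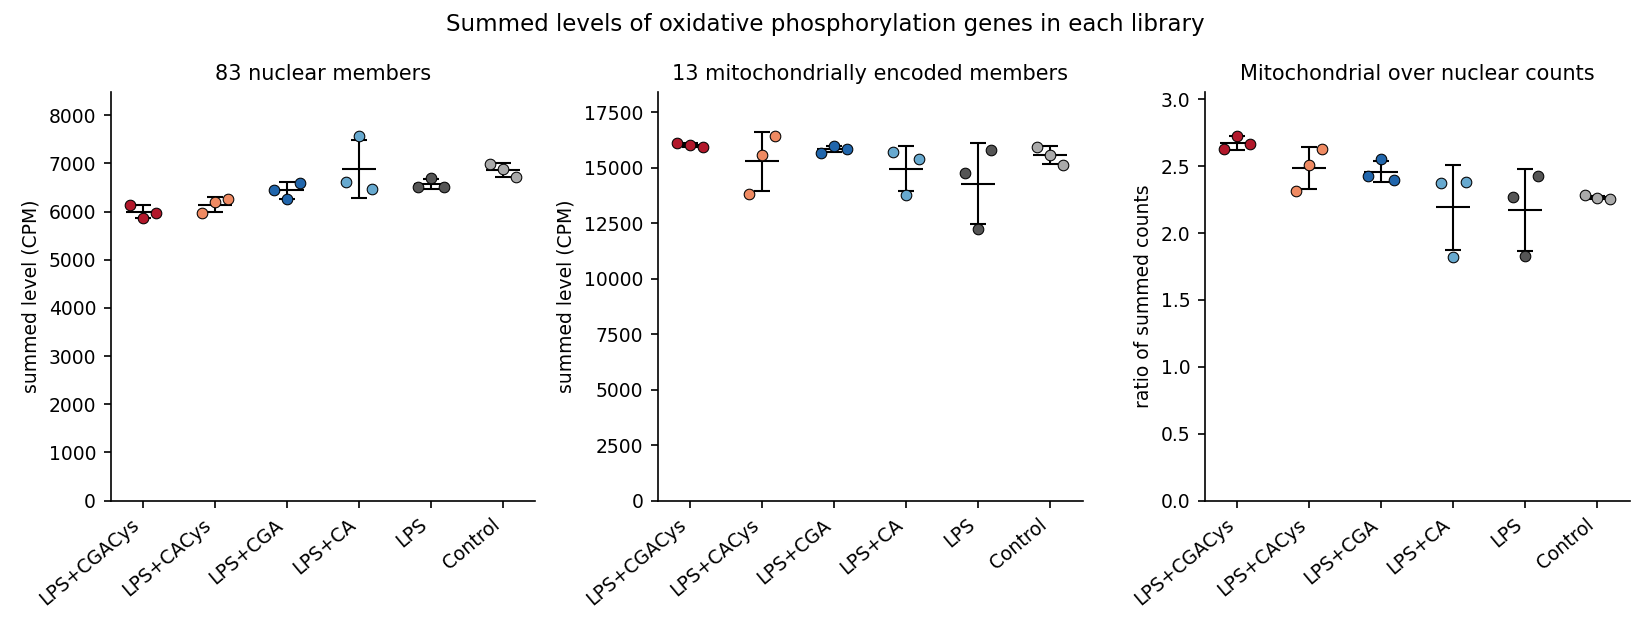
Summed level of the 83 nuclear members (left, CPM), of the 13 mitochondrially encoded members (middle, CPM) and the ratio of their summed counts (right) in each library, by group, with a bar for the mean and a whisker for the SD. The 3 LPS+CGACys libraries have ratios from 2.63 to 2.73, while LPS replicate 2 and LPS+CA replicate 2 lie lowest at 1.83 and 1.82.

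LPS against Control asked how the members changed on activation of the cells. Most called nuclear members fell, and those that rose were 3 assembly factors and 1 accessory subunit of complex I, 2 subunits of complex III, and 1 gene each of complexes IV and V. Of the 83 nuclear members, 30 fell and 8 rose (edgeR quasi-likelihood test, Benjamini-Hochberg adjustment over all 13251 tested genes, called at an adjusted p of 0.05 or less). Over all tested genes 31.6% were called lower and 30.6% higher. The median log2 change was -0.13 for nuclear members and -0.02 for all tested genes. Changes were small: 6 of the 38 called nuclear members reached 1.5-fold, and the greatest fold was 1.81. With upper-quartile scaling 45 nuclear members fell and 6 rose, and the median log2 change was -0.21 for nuclear members and -0.10 for all tested genes.

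Complex III held the clearest examples of members moving apart under LPS. Uqcrh, the hinge protein of complex III, had 33.2, 32.2 and 32.3 CPM in LPS libraries, against 58.1, 51.4 and 49.0 CPM in Control libraries. Every LPS library lay below every Control library, and the log2 change was -0.70 ± 0.10 (SE, edgeR adjusted p = 5.49e-07). The small subunit Uqcr11 also fell, to 23.3 ± 1.42 CPM in LPS cells, against 34.8 ± 0.36 CPM in Control cells (log2 change -0.58). By contrast the core protein Uqcrc2 rose slightly, at 136.7 ± 4.55 CPM in LPS cells and 121.8 ± 3.26 CPM in Control cells (log2 change 0.17), as did the small subunit Uqcrq (log2 change 0.22). With upper-quartile scaling the calls of Uqcrc2 and Uqcrq were lost, and that of Uqcrq was also lost without LPS replicate 2.

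In complex I, 11 of 29 accessory subunits and 2 of 7 core subunits fell, and 1 accessory subunit rose. Ndufb10, an accessory subunit of the membrane arm, had 42.0, 47.3 and 49.0 CPM in LPS libraries, against 66.6, 66.1 and 72.4 CPM in Control libraries (log2 change -0.57 ± 0.08 SE, edgeR adjusted p = 1.82e-07). Ndufv3, a small subunit of the NADH-oxidising module, fell by 0.57 on the log2 scale. The core subunits that fell were Ndufs7 and Ndufs8, which carry iron-sulfur clusters near the quinone site, with log2 changes of -0.25 and -0.26. Ndufs7 was not called without Control replicate 1 (adjusted p = 0.0698). Ndufs1 and Ndufv1, core subunits that take electrons from NADH, were not called.

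The complex I gene that rose was Ndufs4, an accessory subunit of the NADH-oxidising module that joins late in assembly and whose loss in mice causes a Leigh-like disease. It had 34.1, 36.4 and 35.7 CPM in LPS libraries, against 25.2, 24.1 and 24.6 CPM in Control libraries. The groups did not overlap, and the log2 change was 0.52 ± 0.08 (SE, edgeR adjusted p = 3.28e-06). Of the 8 complex I assembly factors 3 rose and 2 fell. Ndufaf6, Ndufaf5 and Ndufaf4 rose, with log2 changes of 0.56, 0.43 and 0.29, whereas Ndufaf7, a methyltransferase, fell by 0.60 and Ndufaf3 by 0.35 on that scale. The assembly factors thus held changes in both directions.

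In complex V, the ATP synthase, 8 of 16 genes fell and 1 rose. The one that rose was Atp5b, the catalytic beta subunit and the nuclear member with the most CPM in LPS cells (not corrected for length), at 894.7 ± 14.3 CPM in LPS cells and 783.7 ± 21.7 CPM in Control cells (log2 change 0.19 ± 0.04 SE, edgeR adjusted p = 8.36e-05). Those that fell included Atp5k, subunit e, with a log2 change of -0.56, the gamma subunit Atp5c1 with -0.23, and Atp5g3 with -0.31. Atp5g1, Atp5g2 and Atp5g3 encode the same mature c subunit of the proton-driven ring from separate genes. Atp5g3 had 120.8, 118.8 and 117.3 CPM in LPS libraries, against 149.4, 146.4 and 146.3 CPM in Control libraries, while Atp5g2 had 119.5, 117.6 and 118.0 CPM in LPS libraries and 117.2, 113.9 and 111.2 CPM in Control libraries. Atp5g3 fell without overlap between the groups and Atp5g2 was not called (log2 change 0.05 ± 0.10 SE). These 3 genes are similar in sequence, and how the authors' counting split shared reads is not given in the sources used here.

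In complex IV, cytochrome c oxidase, 3 of 13 genes fell and 1 rose. Cox6b1 and Cox7b, ubiquitous small subunits, fell with log2 changes of -0.29 and -0.27. Both called muscle-type isoforms were at low levels and went opposite ways. Cox7a1 had 1.83 ± 0.26 CPM in LPS cells and 3.08 ± 0.54 CPM in Control cells (log2 change -0.75), and Cox6a2 had 2.09 ± 0.23 CPM in LPS cells and 1.19 ± 0.40 CPM in Control cells (log2 change 0.80). Their ubiquitous partners Cox7a2 and Cox6a1 were not called. Ndufb2, with a log2 change of -0.86, and Atp5s, with -0.76, were the other nuclear members at such low levels. The call of Ndufb2 was lost without Control replicate 1 or LPS replicate 3, that of Atp5s without Control replicate 1 (adjusted p = 0.0756) and that of Cox6a2 without Control replicate 2 (adjusted p = 0.0653).

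Of the 13 mitochondrial members, 1 was called in LPS against Control, and 10 of the 13 had a negative log2 change with a median of -0.13. The called gene was mt-Nd1, a complex I subunit encoded next to the ribosomal RNA genes, with 1904, 1746 and 1949 CPM in LPS libraries and 2153, 2120 and 2075 CPM in Control libraries. All LPS libraries lay below all Control libraries (log2 change -0.18 ± 0.05 SE, edgeR adjusted p = 0.00272). With upper-quartile scaling, which also moved the median of all tested genes to -0.10, 5 mitochondrial members were called. Without LPS replicate 3 there were 4. Beside these changes, 51 of 84 cytosolic ribosomal protein genes rose and 1 fell in the same comparison.

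**Figure D2:**
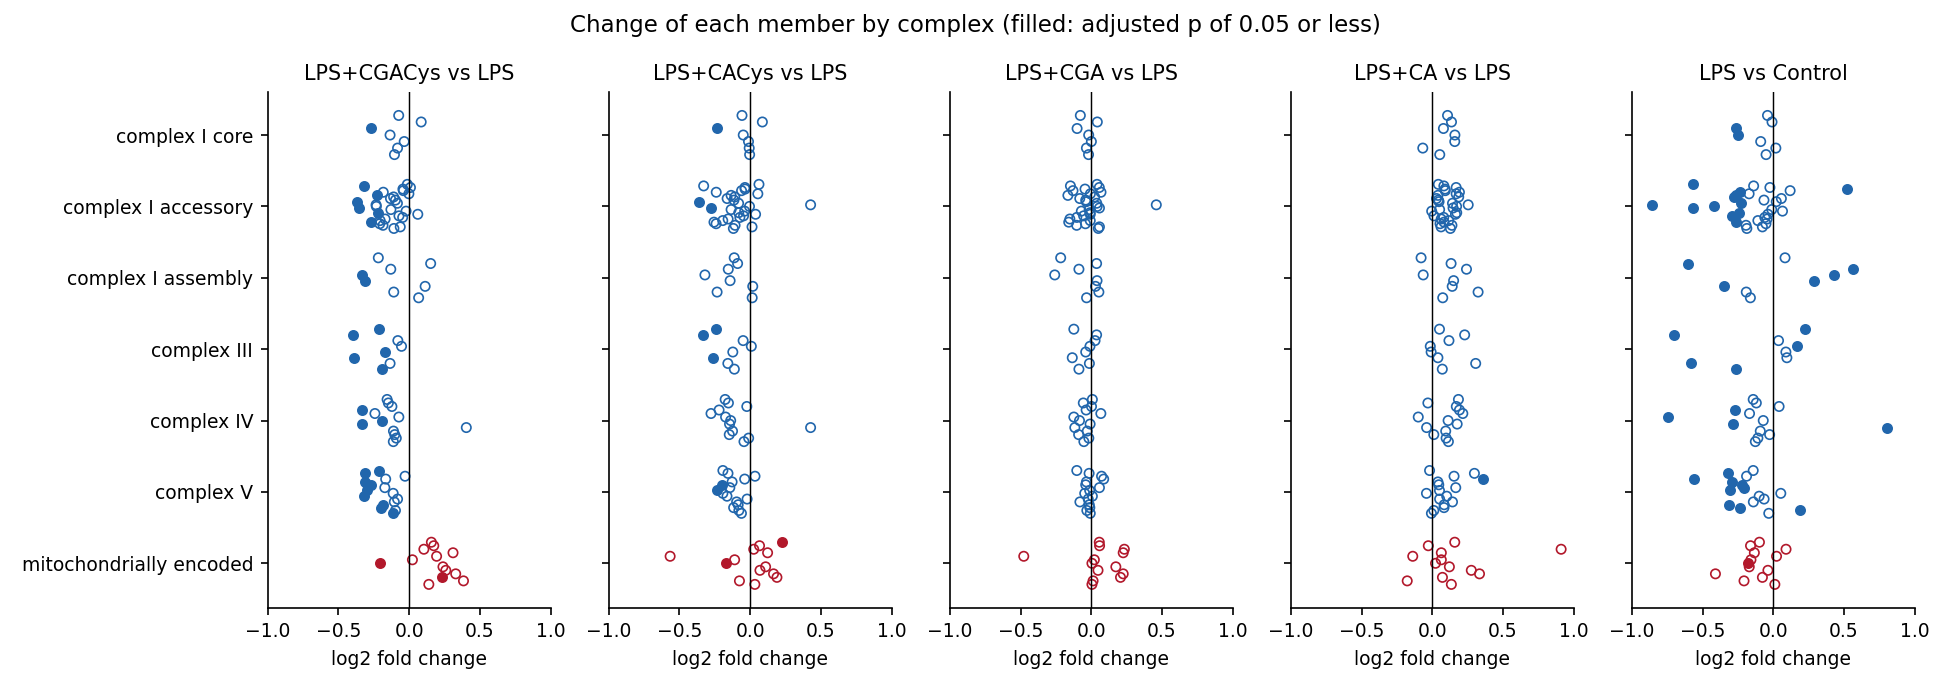
Log2 fold change of each member except Atp5s and Cox7a2l, grouped by complex, for each compound with LPS against LPS and for LPS against Control. Filled points passed an adjusted p of 0.05, with 26 nuclear members filled and below 0 in LPS+CGACys vs LPS and none filled in LPS+CGA vs LPS.

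Counts for other mitochondrial gene lists under LPS stand beside the 30.6% of all tested genes called higher and the 31.6% called lower, and no list was tested against them. Of 8 complex II genes, 3 fell and none rose, with Sdhd, a membrane anchor, at 86.5 ± 3.42 CPM in LPS cells and 122.5 ± 2.80 CPM in Control cells (log2 change -0.50, edgeR adjusted p = 7.97e-09). Sdhc, the other anchor, fell by 0.20 and the catalytic subunits Sdha and Sdhb were not called. Of 15 cytochrome c and quinone synthesis genes, 7 rose and 1 fell, and those that rose included the electron carrier Cycs at 180.2 ± 4.59 CPM in LPS cells and 144.7 ± 3.77 CPM in Control cells. Of 33 assembly genes for complexes III, IV and V, 9 rose and 10 fell. Among those that rose were Cox18 (log2 change 0.87), Cox15 (0.82), which makes heme A, and Ttc19 (0.82), a complex III factor. Cmc2 fell most among them, with a log2 change of -0.88.

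Of 36 genes that maintain and express the mitochondrial genome, 15 rose and 4 fell under LPS. Pnpt1, an RNA-processing enzyme of mitochondria that is also known as an interferon-induced gene, had 151.8 ± 16.3 CPM in LPS cells and 49.4 ± 0.83 CPM in Control cells (log2 change 1.62, edgeR adjusted p = 6.44e-19). Tfam, which packages mitochondrial DNA and acts as a factor in its transcription, rose to 47.4 ± 1.29 CPM in LPS cells, against 32.5 ± 0.49 CPM in Control cells. Polrmt, the mitochondrial RNA polymerase, and Polg, the DNA polymerase, fell with log2 changes of -0.32 and -0.54. Of 77 mitochondrial ribosome genes, 27 rose and 17 fell, from Mrpl52 at a log2 change of 1.122 to Mrpl18 at -0.79. Of 12 nuclear regulators of respiration genes, 4 rose and 2 fell. The coactivator Ppargc1b fell to 2.62 ± 0.38 CPM in LPS cells, against 9.21 ± 0.62 CPM in Control cells (log2 change -1.81), while Pprc1 and Gabpa rose and Nrf1 was not called.

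Caffeic acid and chlorogenic acid asked whether the unconjugated acids alter the LPS response. In LPS+CA against LPS, 1 nuclear member was called, and no mitochondrial member. The called gene was Atp5k, at 16.8 ± 2.12 CPM in LPS+CA cells and 13.1 ± 0.59 CPM in LPS cells (log2 change 0.36, edgeR adjusted p = 0.0253). Over all tested genes 2.3% were called higher and 5.42% lower. At an unadjusted p under 0.05 there were 19 nuclear and 2 mitochondrial members, and 70 of 83 nuclear members had a positive log2 change with a median of 0.09. This lean rested on LPS+CA replicate 2: without it no nuclear member was called, the nuclear median was -0.003, and 1 mitochondrial member was called. The call of Atp5k was also lost without any 1 of LPS replicates 1, 2 and 3, whereas 4 nuclear members were called without LPS+CA replicate 1 and 14 without LPS+CA replicate 3, and 1 mitochondrial member without LPS replicate 3 or LPS+CA replicate 1.

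In LPS+CGA against LPS, edgeR called none of the 96 members, where 0.0679% of all tested genes were called higher and 0.657% lower. At an unadjusted p under 0.05 there were 3 nuclear members, Ndufb8, Ndufaf5 and Ndufaf8, and 1 mitochondrial member, mt-Co1. Without LPS replicate 3, 1 mitochondrial member was called. For Uqcrh the log2 difference was 0.04 with a 95% interval from -0.16 to 0.24, and for Atp5g3 it was -0.01 with an interval from -0.11 to 0.09. LPS+CGA differed from LPS+CA in 1 nuclear member, Cox7a2l, a factor that joins complexes III and IV into supercomplexes, at 117.9 ± 7.14 CPM in LPS+CGA cells and 139.3 ± 17.6 CPM in LPS+CA cells. Over all tested genes 0.634% were called higher and 0.747% lower in that comparison. The call was lost without LPS+CA replicate 2, which had 159.7 CPM of Cox7a2l, and without LPS+CGA replicate 1 or 2, and 8 and 16 nuclear members were called without LPS+CA replicates 1 and 3.

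The cysteine adducts asked whether conjugation changes what the acids do, and with CGACys nuclear members fell in complexes I, III, IV and V to levels under those of LPS alone. In LPS+CGACys against LPS, 26 of 83 nuclear members fell and none rose, where 13% of all tested genes were called lower and 16.1% higher. In LPS+CACys against LPS, 8 nuclear members fell and none rose, where 5.75% of all tested genes were called lower and 8.51% higher. The median log2 change of nuclear members was -0.13 in LPS+CGACys and -0.11 in LPS+CACys, against 0.02 and 0.01 over all tested genes. No called nuclear member reached 1.5-fold, and the greatest fold was 1.32 in LPS+CGACys and 1.29 in LPS+CACys. Both comparisons use the same LPS libraries. Beside them, 12 of 84 cytosolic ribosomal protein genes fell in LPS+CGACys and 6 in LPS+CACys, and the summed macrophage markers were at 4430 to 4520 CPM in LPS+CGACys libraries and 4840 to 4890 CPM in LPS+CACys libraries, against 5400 to 5580 CPM in LPS libraries. Their part in the result was not tested.

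Complexes III and V held the greatest shares of members lower in LPS+CGACys than in LPS, with 5 of 8 and 9 of 16. Uqcrh had 25.2, 24.6 and 24.5 CPM in LPS+CGACys libraries and 22.6, 25.9 and 28.7 CPM in LPS+CACys libraries, against the 33.2, 32.2 and 32.3 CPM of LPS libraries. No adduct library reached the lowest LPS library, and the log2 change was -0.39 ± 0.10 in LPS+CGACys (SE, edgeR adjusted p = 0.00441) and -0.34 ± 0.10 in LPS+CACys (adjusted p = 0.026). Uqcrb, a subunit near the quinone sites of complex III, fell to 40.6 ± 0.92 CPM in LPS+CGACys cells, against 53.0 ± 0.54 CPM in LPS cells (log2 change -0.39). The core protein Uqcrc1 also fell, by 0.17, while Uqcrc2 and the Rieske iron-sulfur protein Uqcrfs1 were not called. The CACys call of Uqcrh was lost without any 1 of LPS replicates 1 to 3 or LPS+CACys replicates 1 and 2, with adjusted p-values up to 0.148, whereas the CGACys calls of Uqcrh and Uqcrb held without each library in turn.

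Among the complex V genes, the c-subunit genes again moved unequally. Atp5g3 had 99.0, 98.1 and 93.2 CPM in LPS+CGACys libraries and 98.6, 99.5 and 105.1 CPM in LPS+CACys libraries, all below the 117.3 to 120.8 CPM of LPS libraries. Its log2 change was -0.30 ± 0.05 in LPS+CGACys (SE, edgeR adjusted p = 3.4e-05) and -0.23 ± 0.05 in LPS+CACys (adjusted p = 0.0014), and both calls held without each library in turn. Atp5g1 had 58.4, 54.8 and 61.7 CPM in LPS+CGACys libraries, against 70.6, 75.9 and 71.8 CPM in LPS libraries (log2 change -0.32 ± 0.06 SE, edgeR adjusted p = 8.54e-05). In LPS+CACys libraries Atp5g1 had 62.7, 67.2 and 64.8 CPM, below all LPS libraries but without a call (adjusted p = 0.0504). Atp5g2 was called in none of the 9 comparisons, with log2 differences from LPS of -0.11 ± 0.10 in LPS+CGACys and -0.19 ± 0.10 in LPS+CACys, and LPS+CACys replicate 1 stood low for it at 78.7 CPM. The alpha subunit Atp5a1 had 500.6 ± 9.43 CPM in LPS+CGACys cells and 541.8 ± 3.44 CPM in LPS cells (log2 change -0.11), a call lost without any of 5 of the 6 libraries, all but LPS+CGACys replicate 1, while Atp5b was not called.

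**Figure D3:**
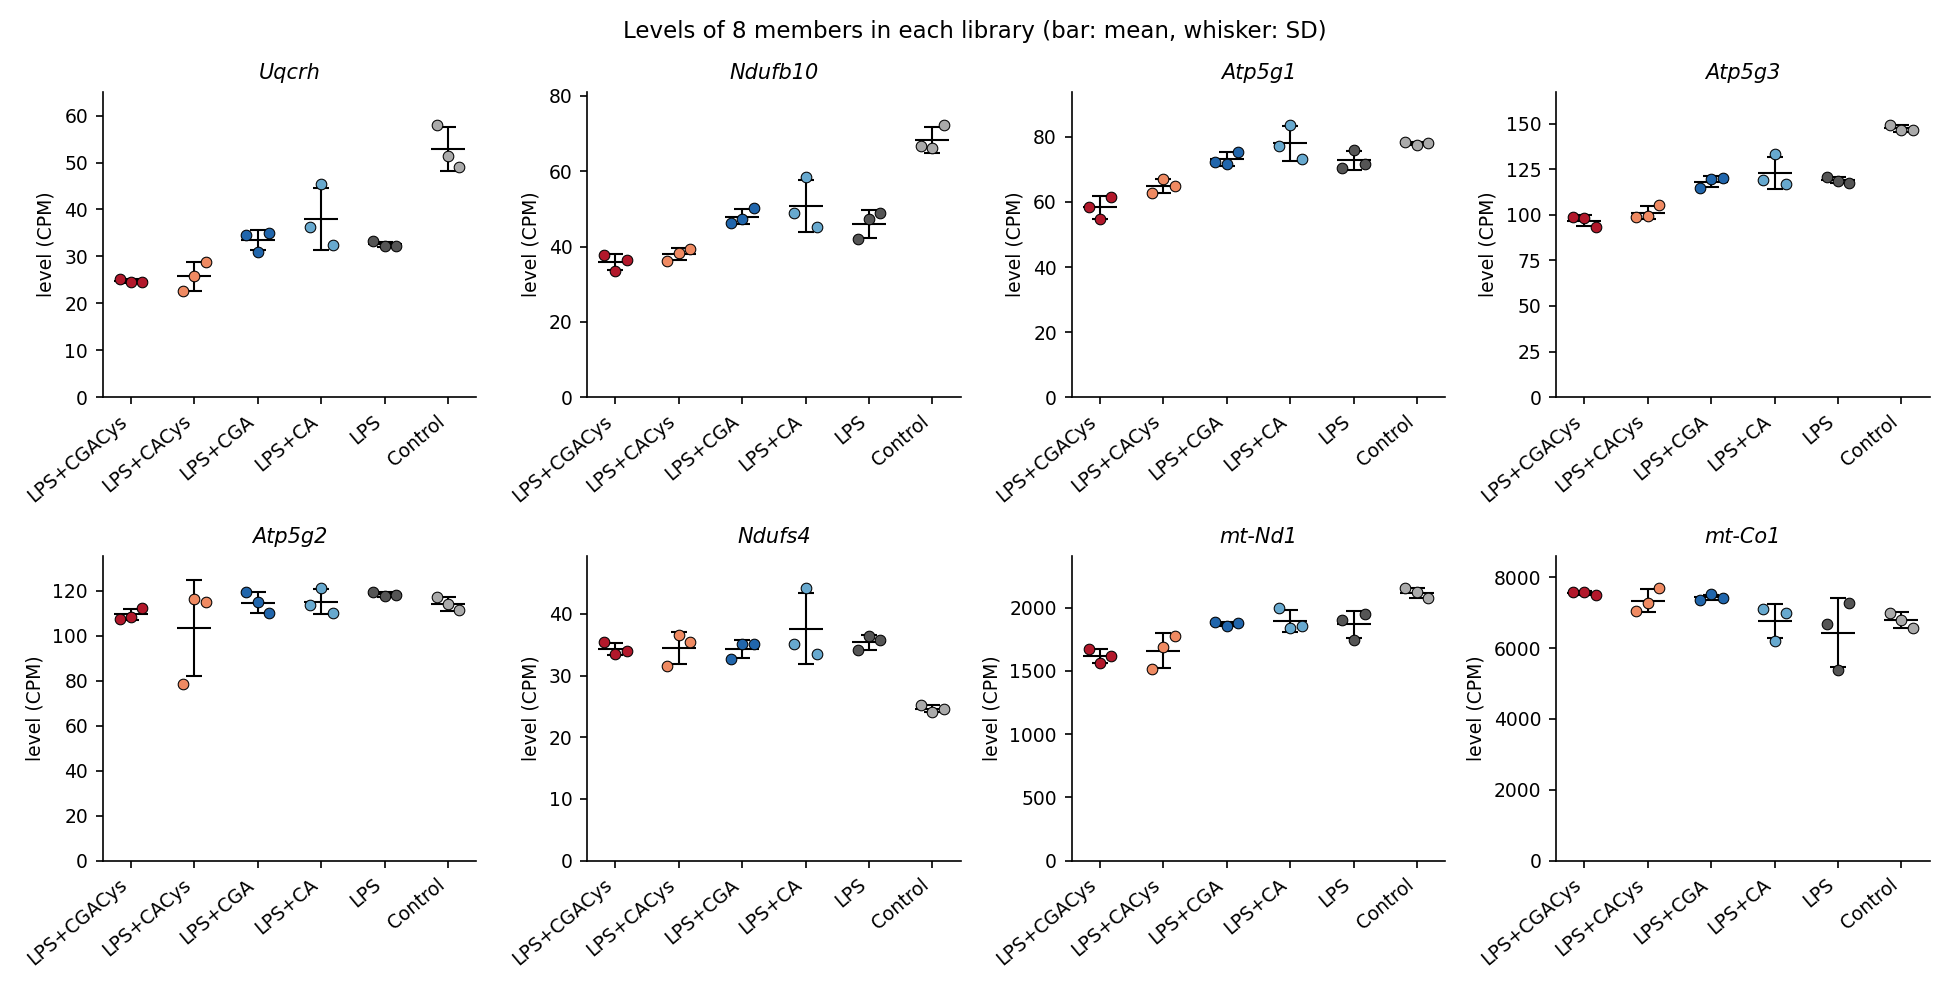
Levels in CPM of 8 members in each library, by group, with a bar for the mean and a whisker for the SD. Uqcrh, Ndufb10 and Atp5g3 are lower in LPS than in Control libraries and lower again in both adduct groups, while Ndufs4 is higher in every LPS-treated library than in Control libraries and mt-Co1 is lowest in LPS replicate 2 at 5371 CPM.

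The complex I and IV members lower in LPS+CGACys than in LPS were 6 of 29 accessory and 1 of 7 core subunits of complex I, 2 of 8 assembly factors and 3 of 13 complex IV genes. Ndufb10 had 37.8, 33.6 and 36.6 CPM in LPS+CGACys libraries, against 42.0, 47.3 and 49.0 CPM in LPS libraries, with a log2 change of -0.36 ± 0.08 (SE, edgeR adjusted p = 0.00107). The core subunit Ndufs8 fell with both adducts, with log2 changes of -0.27 in LPS+CGACys and -0.24 in LPS+CACys, and the LPS+CACys call was lost without LPS+CACys replicate 1 (adjusted p = 0.081). In complex IV, Cox6b1 and Cox7b fell in LPS+CGACys with log2 changes of -0.33 each, and Cox4i1, Cox5a, Cox5b and Cox6a1 were not called. The calls of Ndufb4, Ndufaf5 and Ndufs6, with log2 changes of -0.37, -0.33 and -0.32, were less stable. That of Ndufb4 was lost without LPS replicate 2 or LPS+CGACys replicate 1, that of Ndufs6 without any single library, and that of Ndufaf5 without LPS replicates 2 or 3 or LPS+CGACys replicates 1 or 2.

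Ndufs4, which LPS raised, did not follow the falling members. It had 35.5, 33.5 and 34.04 CPM in LPS+CGACys libraries and 31.5, 36.6 and 35.4 CPM in LPS+CACys libraries, and neither differed from LPS by a call (log2 differences of -0.04 ± 0.08 SE each). Ndufaf4, another gene raised by LPS, did fall in LPS+CGACys, to 29.0 ± 2.10 CPM, against 35.9 ± 1.14 CPM in LPS cells and 29.5 ± 1.05 CPM in Control cells. Ndufaf5 and Uqcrq, also raised by LPS, were called lower in LPS+CGACys as well, Uqcrq with a log2 change of -0.21 whose call was lost without any 1 of the 6 libraries. The calls against LPS thus included genes that LPS lowered, such as Uqcrh, Ndufb10 and Atp5g3, and 3 that it raised. How many members fell depended on single libraries. For LPS+CGACys against LPS, 15 nuclear members were called without LPS replicate 2 and 17 without LPS+CGACys replicate 2 or 3. In LPS+CACys against LPS there were 4, 3 and 2 without LPS replicates 1, 2 and 3, and 1, 5 and 13 without LPS+CACys replicates 1, 2 and 3.

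The mitochondrial members did not fall with the adducts as a group. With LPS+CGACys against LPS, 12 of 13 had a positive log2 change and the median was 0.19, with 1 called higher and 1 lower. The gene called higher was mt-Co1, the catalytic subunit of complex IV, with 7578, 7580 and 7490 CPM in LPS+CGACys libraries and 6669, 5371 and 7275 CPM in LPS libraries (log2 change 0.23 ± 0.08 SE, edgeR adjusted p = 0.0307). The low LPS library was replicate 2: without it the log2 change was 0.11 (adjusted p = 0.128) and the median of the mitochondrial members was 0.08, while that of nuclear members was -0.12. The call of mt-Co1 was also lost without any 1 of the LPS+CGACys libraries, and 4 mitochondrial members were called without LPS replicate 3, against 1 without LPS+CGACys replicate 1 or 3. In LPS+CACys against LPS the median was 0.07, with mt-Nd6 higher and mt-Nd1 lower. Without LPS replicate 2 that median was -0.004, with 1 mitochondrial member called lower and 0 higher.

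mt-Nd1 was the exception among mitochondrial members. It had 1673, 1559 and 1616 CPM in LPS+CGACys libraries and 1513, 1690 and 1778 CPM in LPS+CACys libraries, against 1904, 1746 and 1949 CPM in LPS libraries. All LPS+CGACys libraries lay below all LPS libraries (log2 change -0.21 ± 0.05 SE, edgeR adjusted p = 0.0023), and LPS+CACys replicate 3 overlapped LPS replicate 2 (log2 change -0.17, adjusted p = 0.0232). The first call held without each library in turn, and the CACys call was lost without LPS replicate 1 or 3 or LPS+CACys replicate 1. The ribosomal RNA genes that precede mt-Nd1 on the same strand went the other way with both adducts against LPS. The log2 changes of mt-Rnr2 and mt-Rnr1 were 0.27 (edgeR adjusted p = 0.00024) and 0.23 (adjusted p = 0.00705) in LPS+CGACys against LPS. In LPS+CACys against LPS they were 0.21 (edgeR adjusted p = 0.00629) and 0.19 (adjusted p = 0.046). mt-Rnr2 was also called higher in LPS+CA against LPS (log2 change 0.17, edgeR adjusted p = 0.0387), while mt-Rnr1 was not. Neither was called in LPS+CGA against LPS. Values for these genes without LPS replicate 2 are not given here. In LPS against Control mt-Rnr2 fell as mt-Nd1 did (log2 change -0.20, edgeR adjusted p = 0.00152), and mt-Rnr1 was not called. In LPS+CACys against LPS+CA neither ribosomal RNA gene was called, while in LPS+CGACys against LPS+CGA mt-Rnr2 (log2 change 0.16) and mt-Rnr1 (0.19) were called higher. mt-Nd1 was called lower in 5 of the 9 comparisons, and 10 of the 13 mitochondrial members in none.

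mt-Nd6, the only protein gene on the light strand, had 290.5, 297.6 and 303.3 CPM in LPS+CACys libraries and 255.1, 225.3 and 280.8 CPM in LPS libraries (log2 change 0.23 ± 0.06 SE, edgeR adjusted p = 0.0173). The groups did not overlap. Its call was lost without LPS replicate 1 or 2 or LPS+CACys replicate 2 or 3, with an adjusted p up to 0.132. In LPS+CACys against LPS no mitochondrial member was called without LPS replicate 1, and 1 was called without LPS replicate 2 or any LPS+CACys library. mt-Nd6 overlaps mt-Nd5 on the opposite strand, and because the sources used here do not say whether counting used strand, their reads cannot be told apart there.

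**Figure D4:**
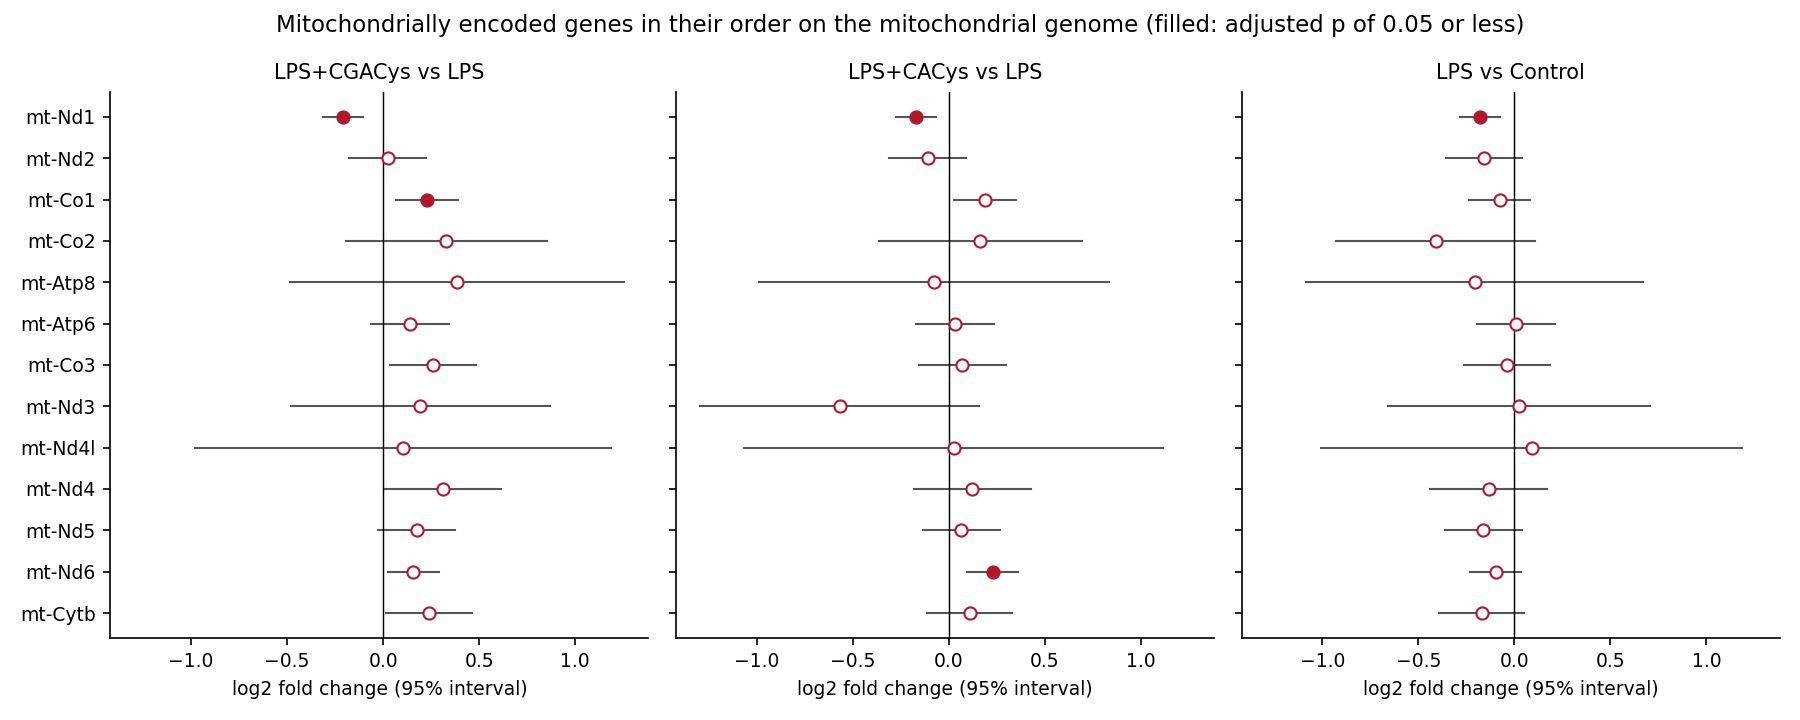
Log2 fold change with its 95% interval for the 13 mitochondrially encoded genes in genome order, in LPS+CGACys vs LPS, LPS+CACys vs LPS and LPS vs Control, filled where the adjusted p was 0.05 or less. mt-Nd1 is below 0 in each panel, and intervals are widest for mt-Atp8, mt-Nd3 and mt-Nd4l, whose summed counts were 300, 347 and 1183.

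Levels along the mitochondrial genome were uneven. Per kilobase, in LPS cells, mt-Co1 had 4170 ± 629 CPM, mt-Cytb 2380 ± 348 and mt-Nd1 1950 ± 112, whereas the stretch from mt-Co2 to mt-Nd4l had 32.1 ± 4.93 for mt-Co2, 29.9 ± 3.52 for mt-Atp6, 16.7 ± 1.15 for mt-Co3 and 9.35 ± 2.20 for mt-Nd4l. mt-Nd4, directly after this stretch, had 571 ± 82.7 CPM per kilobase. In RefSeq's annotation of build GRCm38.p6, chromosome 1 carries pseudogenes of the same lengths as members of that stretch. Gm10925, from 24613971 to 24614651, spans 681 bases as does mt-Atp6, and Gm10222, from 24612404 to 24612700, spans 297 bases as does mt-Nd4l. These had summed counts of 11210 and 1577, against 7552 for mt-Atp6 and 1183 for mt-Nd4l. Values of the 6 members from mt-Co2 to mt-Nd4l are therefore uncertain, and how reads shared with such copies were assigned was not tested. Among the 7 mitochondrial members outside the stretch, the median log2 change was 0.17 in LPS+CGACys against LPS and -0.16 in LPS against Control. For LPS+CACys against LPS+CA it was 0.06, where the median over all 13 was -0.10. mt-Nd4l had 10.2 CPM in LPS+CA replicate 1 and 1.67 to 3.70 CPM in every other library.

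The direct comparison of each adduct with its parent acid asked what the cysteine adds. The 2 comparisons share no library. In LPS+CGACys against LPS+CGA, 22 nuclear members fell and none rose, where 14.9% of all tested genes were called lower and 18.2% higher. In LPS+CACys against LPS+CA, 41 nuclear members fell and none rose, where 11.9% of all tested genes were called lower and 15.2% higher. The median log2 change of nuclear members was -0.10 for CGACys and -0.19 for CACys, against 0.01 and 0.00 over all tested genes. Of the mitochondrial members mt-Nd1 was called lower in each, with log2 changes of -0.21 (edgeR adjusted p = 0.00151) and -0.19 (adjusted p = 0.00502), and no other was called.

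The nuclear members that fell with both adducts numbered 17, which was 77.3% of the 22 with CGACys and 41.5% of the 41 with CACys. They were Uqcrh and Uqcrb of complex III, Cox6b1, Cox7a2 and Cox7b of complex IV, Ndufa8, Ndufb4, Ndufb10, Ndufc1, Ndufs8 and Ndufaf4 of complex I, and Atp5c1, Atp5g1, Atp5g3, Atp5h, Atp5j and Atp5mpl of complex V. The 5 that fell with CGACys without a call for CACys were Atp5a1, Atp5d, Atp5j2, Ndufb11 and Uqcrc1. Both log2 changes were negative for 64 of the 83, and Pearson's r between them was 0.50 across these genes, which are not independent replicates. Uqcrh headed both lists by size, with a log2 change of -0.43 ± 0.10 for CGACys (SE, edgeR adjusted p = 0.00139) and -0.56 ± 0.10 for CACys (adjusted p = 9.69e-05). Cox7a2, the ubiquitous form of its subunit, had 45.1, 42.6 and 47.2 CPM in LPS+CGACys libraries, against 54.9, 51.5 and 60.8 CPM in LPS+CGA libraries. It had 34.2, 48.5 and 48.5 CPM in LPS+CACys libraries, against 56.2, 67.6 and 61.3 CPM in LPS+CA libraries, so neither adduct group overlapped its parent group. LPS+CACys replicate 1 was the low library, and the CACys call of Cox7a2 held in every alternative run. Its CGACys call was lost without LPS+CGA replicate 1 or 3 or LPS+CGACys replicate 1 or 2, with an edgeR adjusted p up to 0.122.

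**Figure D5:**
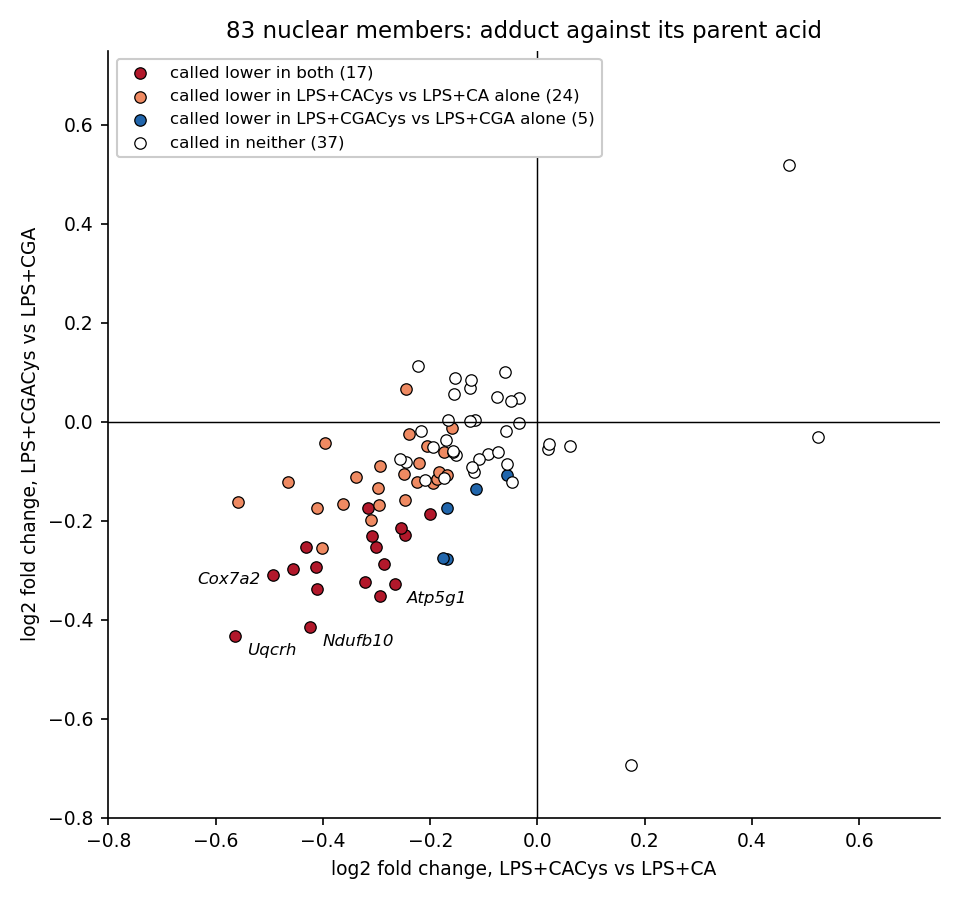
Log2 fold change of the 83 nuclear members in LPS+CACys vs LPS+CA (x axis) and LPS+CGACys vs LPS+CGA (y axis), coloured by where they were called lower. The 17 members called in both lie in the lower left, led by Uqcrh at -0.56 and -0.43.

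The count for CACys against CA rested in part on 2 libraries. Without LPS+CA replicate 2, in which nuclear members and ribosomal protein genes were both high, 22 nuclear members fell and 1 rose, the nuclear median was -0.11, and all 22 were among the 41. Cytosolic ribosomal protein genes called lower numbered 33 of 84 with that library and 12 without it. Without LPS+CACys replicate 1, 26 nuclear members were called. Mitochondrial members called were 2 without LPS+CA replicate 2 or LPS+CACys replicate 3, and 0 without LPS+CACys replicate 1. The count for CGACys against CGA moved as well, to 13 and 10 without LPS+CGA replicates 1 and 3 and to 13 and 11 without LPS+CGACys replicates 2 and 3, and 2 mitochondrial members were called without LPS+CGACys replicate 1. Of the 84 ribosomal protein genes, 4 fell in LPS+CGACys against LPS+CGA. The calls of Uqcrh, Ndufb10, Ndufaf4, Cox6b1, Cox7b, Atp5g1, Atp5g3 and Atp5j held in both comparisons without each library in turn.

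The 2 adducts, which differ by the quinic acid ester, were not told apart in these genes at matched dose and time. In LPS+CGACys against LPS+CACys edgeR called none of the 96 members, where 1.02% of all tested genes were called higher and 0.785% lower. At an unadjusted p under 0.05 there were 9 nuclear members and 1 mitochondrial member. The log2 difference of Uqcrh was -0.06 with a 95% interval from -0.27 to 0.15, that of Ndufb10 was -0.08 from -0.25 to 0.09, that of Atp5g3 was -0.06 from -0.17 to 0.04 and that of mt-Nd1 was -0.04 from -0.14 to 0.07. The difference between the adduct effects, CGACys over CGA minus CACys over CA, was called for none of the 96 members by edgeR, with 8 at an unadjusted p under 0.05 and 289 calls over all tested genes. A larger number of calls with one adduct is therefore not a tested difference between adducts.

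The same lists were counted for the adducts. Over all tested genes 13% were called lower and 16.1% higher in LPS+CGACys against LPS, and 5.75% and 8.51% in LPS+CACys against LPS. Against the parent acids these shares were 14.9% and 18.2% with CGACys, and 11.9% and 15.2% with CACys. No list was tested against any of these shares. Complex II genes fell in 2 of 8 cases in LPS+CGACys against LPS, Sdha and Sdhc with log2 changes of -0.17 each, and in 5 of 8 cases in LPS+CACys against LPS+CA. Of 77 mitochondrial ribosome genes, 13 fell and 1 rose in LPS+CGACys against LPS, and 5 fell in LPS+CACys against LPS, with Mrpl34 changing by -0.63 and -0.40. Against the parent acids 9 rose and 9 fell with CGACys and 16 fell with CACys. Cycs was not called in any comparison with an adduct. Of the assembly genes for complexes III, IV and V, 5 rose and 3 fell in LPS+CGACys against LPS, including Surf1 at 0.41 and Uqcc2, a factor for complex III, at -0.41.

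Of the 36 genes that maintain and express the mitochondrial genome, 4 rose and 6 fell in LPS+CGACys against LPS. Polrmt, which fell with LPS alone, was at 21.2 ± 3.37 CPM in LPS+CGACys cells, 24.4 ± 2.08 CPM in LPS+CACys cells and 30.2 ± 1.08 CPM in LPS cells (log2 changes of -0.51, edgeR adjusted p = 0.000146, and -0.31, adjusted p = 0.0241). Rexo2, a mitochondrial oligoribonuclease, and Fastkd3, an RNA-binding factor, also fell with both adducts, whereas Grsf1, a protein of mitochondrial RNA granules, rose with both. Tfam was not called in any of the comparisons among LPS-treated groups. Pprc1, a coactivator of the PGC-1 family that LPS raised, was at 114.7 ± 2.20 CPM in LPS+CGACys cells, 121.1 ± 4.88 CPM in LPS+CACys cells and 135.0 ± 1.73 CPM in LPS cells. Nrf1 and Gabpa, transcription factors of respiration genes, were not called against LPS.

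Of the 13 mitophagy, uncoupling and dynamics genes, the greatest change was in Bnip3, a mitochondrial outer membrane protein that acts as a mitophagy receptor and is also known as a hypoxia-responsive gene. It had 58.2 ± 1.56 CPM in LPS+CGACys cells and 57.1 ± 9.08 CPM in LPS+CACys cells, against 20.1 ± 3.38 CPM in LPS cells. The log2 changes were 1.53 (edgeR adjusted p = 7.01e-08) and 1.51 (adjusted p = 3.14e-07). Its level in LPS+CGA cells was 24.5 ± 2.94 CPM and in LPS+CA cells 22.6 ± 3.41 CPM, without a call against LPS. Among the others, in LPS+CGACys against LPS, the fission gene Dnm1l also rose and Pink1, a kinase that marks damaged mitochondria, fell. Ucp2, an inner membrane carrier that LPS lowered to 272.0 ± 10.8 CPM, against 422.6 ± 7 CPM in Control cells, was not called with either adduct against LPS.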

How the data were processed

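The deposited values were raw counts per Ensembl gene for 18 libraries, whose unit was read from the values. Per the submitters' processing notes, HISAT, DESeq2 and mm10 were used, with no versions. The counting program, strand setting and treatment of reads with several matches are not given in the sources used here. RefSeq's gene table for GRCm38.p6 gave positions for all 96 members, and no sequences were used here.

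A single edgeR model (version 4.0.16, under R 4.3.3) held every library: filterByExpr defaults (13251 genes), TMM factors, robust glmQLFit and glmQLFTest, with no covariate. SE was the absolute log2 change over the square root of F. CPM used TMM-scaled library sizes, and values are mean ± SD. The procedure was tested on simulated data. No 2 libraries of a group agreed within sampling noise.

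The members, roles and gene lists were chosen with earlier results of these data known. Named were all mitochondrial members, the 8 called nuclear members with the greatest log2 change in a direction, listed core subunits and paralogs, the 2 to 4 greatest of each context list, and a few listed regulators. Other members are named where a list is given in full or a call changed, chosen after their values were seen. Alternatives were RLE and upper-quartile factors, library sizes without mitochondrial genes, no filter, a replicate block, only the 2 groups compared, DESeq2 1.42.0, and leaving out each library.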

Additional observations from a re-analysis of the deposited data

How the results depend on the processing

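None of the 144 called gene results changed direction under the alternatives run, while the untested log2 ratio differences of LPS against Control and LPS+CA against LPS crossed 0, as their ranges show. Of the called results, 69 kept their call in every alternative and 75 lost it in at least 1. The cause of the changes below was not tested. Fitting only the 2 groups compared, with fewer libraries behind the spread, gave 45 nuclear members for LPS+CGACys against LPS, 35 for LPS+CGACys against LPS+CGA, 20 for LPS+CACys against LPS, 18 for LPS+CACys against LPS+CA, 1 for LPS+CGACys against LPS+CACys, and 0 for LPS+CA against LPS and for LPS+CGA against LPS+CA. The same fit gave 2 mitochondrial members for LPS against Control and for LPS+CGACys against LPS+CGA, and 0 for LPS+CACys against LPS and against LPS+CA. Without a filter, 8 nuclear and 1 mitochondrial member were called for LPS+CA against LPS, 16 nuclear for LPS+CACys against LPS and 7 nuclear for LPS+CGA against LPS+CA. DESeq2 gave 3 nuclear members for LPS+CGA against LPS+CA. Upper-quartile factors gave 5 mitochondrial members for LPS against Control.

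Same-numbered libraries were not paired by the labels, and their deviations correlated from -0.125 to 0.106, with 0 of 15 group pairs above the limit throughout. With a replicate block LPS+CGA against LPS+CA had 0 nuclear members, LPS+CACys against LPS 10 and LPS+CGACys against LPS 24.

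With each library left out in turn, nuclear members called ran from 33 to 38 for LPS against Control, 0 to 14 for LPS+CA against LPS, 0 to 0 for LPS+CGA against LPS, 1 to 13 for LPS+CACys against LPS, 15 to 20 for LPS+CGACys against LPS, 23 to 55 for LPS+CACys against LPS+CA, 10 to 20 for LPS+CGACys against LPS+CGA, 0 to 16 for LPS+CGA against LPS+CA and 0 to 0 for LPS+CGACys against LPS+CACys. Mitochondrial members ran, in the same order, from 1 to 4, 0 to 1, 0 to 1, 0 to 2, 1 to 4, 0 to 2, 1 to 2, 0 to 0 and 0 to 0. The log2 ratio difference ran from -0.155 to 0.049, -0.108 to 0.139, 0.069 to 0.272, 0.082 to 0.285, 0.189 to 0.392, 0.062 to 0.255, 0.103 to 0.147, 0.049 to 0.242 and 0.057 to 0.149 in that order. Without mt-Co1, chosen after seeing the data, LPS+CGACys exceeded LPS by 0.25 and LPS+CGA by 0.12. Low counts of mt-Atp8, mt-Nd3, Atp5s and Ndufb2 limit what can be called there.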
